A study of Mus musculus with 23 samples.

Results

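Amino acids cross the membranes of brain cells through several families of solute carriers, and the families SLC3, SLC7, SLC36, SLC38, and SLC43 were measured here in the brains of adult male mice whose prenatal maternal diet differed. Members were all non-control probes whose gene name in the scanner files begins with Slc3a, Slc7a, Slc36a, Slc38a, or Slc43a and a number. The rule found 45 probes for 36 genes among 39429 probes for 31829 genes, and it used no measured value. There were 2 genes in SLC3, 16 in SLC7, 4 in SLC36, 11 in SLC38, and 3 in SLC43. Slc7a6os matched the rule by its name only and is not a transporter.

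C57BL/6J embryos made by in vitro fertilization were carried by ICR recipient mothers on 1 of 3 diets, and the whole brain, cerebellum included, was taken from 4 male progenies per diet at 19 weeks of age. The control diet (CD) held 20% casein and 0.02% folic acid, the protein-restricted diet (PR) 5% casein and 0.02% folic acid, and the PR diet with supplemental folic acid (FA) 5% casein and 0.1% folic acid. Recipient mothers ate the diet of their group until delivery, and all progenies ate the CD after weaning, so that the diets no longer differed when the brains were taken. The study's text is not uniform on whether foster mothers ate the CD or the diet of the group, so the diet during nursing is not settled here. Embryo transfer, cesarean delivery, and fostering were shared by all 3 groups. Behavioral tests came earlier in each group, but the study's legends give fewer CD mice for fear conditioning and tail suspension than for most other tests. Which progenies were littermates is not given in the sources used here. The study also measured promoter methylation, which was not analysed here.

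By way of background, the SLC3 proteins are heavy chains that bring light chains of the SLC7 family to the cell surface, and the resulting pairs exchange large neutral amino acids, cystine, or small neutral amino acids. The other SLC7 branch carries cationic amino acids such as arginine and lysine. SLC38 holds the sodium-coupled system A and system N carriers, which move glutamine and other neutral amino acids between neurons and astrocytes, and several SLC36 and SLC38 proteins sit in the lysosome, where they take part in amino acid sensing by the mTORC1 kinase complex. SLC43 holds carriers of branched-chain and other large neutral amino acids.

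Each brain was hybridized to a one-color Agilent array, and values are log2 of the normalized intensity of a probe, so that 1 unit is a doubling. They compare mice at the same probe and not probes with each other. The 4 arrays of a diet were on a slide of their own and were scanned together, so a difference of slides cannot be told apart from that of diets below. Of all probes, 62 to 65.3% were well above background on the CD arrays, 71.9 to 77.1% on the PR arrays, and 69.9 to 72.9% on the FA arrays, and no spot was saturated. For the transporters, 34 of 45 probes were well above background on each CD array, 38 to 40 on the PR arrays, and 39 on each FA array. On all 12 arrays 33 probes were well above background and on none 4. A lower amount of an RNA in whole brain can come from fewer cells of a type or from less RNA per cell, which cannot be told apart. The number of arrays limits the precision. Neuronal, astrocyte, oligodendrocyte, and microglial markers were well above background on all 12 arrays (19 genes).

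Sequence from the RefSeq promoter table (GRCm38.p6) is shown for 4 genes, because amino acid shortage is known to act on promoters of this group through the response element of the C/EBP and ATF factors (TGATGNAAN) and lysosomal genes carry the CLEAR element, whose core CACGTGAC was searched. Each line gives the 150 bases before the start of the gene on its own strand, 5′ to 3′, with matches on either strand in capitals. The first 2 carry matches. The last 2 belong to genes whose only probe was called higher in both low-protein groups and hold no match in these bases. Sequence farther from the start, such as introns, was not searched, so these genes are not shown to lack the elements.
Slc7a11: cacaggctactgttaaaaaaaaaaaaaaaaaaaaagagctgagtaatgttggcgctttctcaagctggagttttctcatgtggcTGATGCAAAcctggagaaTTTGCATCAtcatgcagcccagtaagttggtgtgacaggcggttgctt
Slc36a1: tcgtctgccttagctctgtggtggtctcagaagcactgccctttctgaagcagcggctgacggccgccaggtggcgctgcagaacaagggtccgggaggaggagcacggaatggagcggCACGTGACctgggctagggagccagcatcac
Slc38a2: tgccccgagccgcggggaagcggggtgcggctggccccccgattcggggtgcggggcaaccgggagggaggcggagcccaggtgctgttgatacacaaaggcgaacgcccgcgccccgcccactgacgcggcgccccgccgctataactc
Slc38a6: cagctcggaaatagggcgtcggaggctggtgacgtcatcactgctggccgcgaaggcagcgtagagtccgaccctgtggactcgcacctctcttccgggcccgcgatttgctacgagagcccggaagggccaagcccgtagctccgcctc

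The stretches are chr3:50443614-50443763 (minus strand) for Slc7a11, chr11:55204190-55204339 (plus strand) for Slc36a1, chr15:96699729-96699878 (minus strand) for Slc38a2, and chr12:73286698-73286847 (plus strand) for Slc38a6. In windows from 250 bases before to 50 bases after the start, the table held 37 promoters for 26 of the 36 genes. TGATGNAAN was found in 3 of them (8.11%), 1 of Slc7a11 and the others of Slc7a7, beside 3.95% of 32851 promoters in the whole table. The Slc7a7 windows overlap and share a match, so the share rests on 2 genes. In Slc7a11 the matches began 66 and 48 bases before the start and lay on opposite strands. CACGTGAC was found in 1 of the 37 (2.7%), that of Slc36a1, beside 2.25% of all promoters, and a further match there spanned the start. A match is only a run of letters and no measured site.

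Against CD, the PR group had 4 of 45 transporter probes lower and 7 higher at a limma adjusted p under 0.05, and the FA group had 10 lower and 8 higher. In the PR comparison 16.6% of all probes of the array were lower and 13.4% higher, beside 8.89% and 15.6% of the transporter probes. In the FA comparison 18% of all probes were lower and 16.4% higher, beside 22.2% and 17.8% of the transporter probes. The shares of changed transporters were therefore near those of the whole array (24.4% beside 30% in PR and 40% beside 34.4% in FA), and the median log2 difference of the transporters, -0.02 in PR and 0.01 in FA, was beside -0.02 and -0.01 for all probes. The comparisons share the CD mice. In PR, 8 transporter probes were lower in all 4 mice than in any CD mouse and 6 were higher, beside 19% and 14.2% of all probes. In FA 8 were lower and 8 higher in this way, beside 19.7% and 17.1%. At an unadjusted p under 0.05 there were 18 transporter probes in PR (40%, beside 41.1% of all probes) and 22 in FA (48.9%, beside 44.4%). At the study's limits of at least 2-fold and an adjusted p under 0.0001, 0 transporter probes were called in either comparison, beside 0.0862% of all probes in PR and 0.195% in FA.

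**Figure D1:**
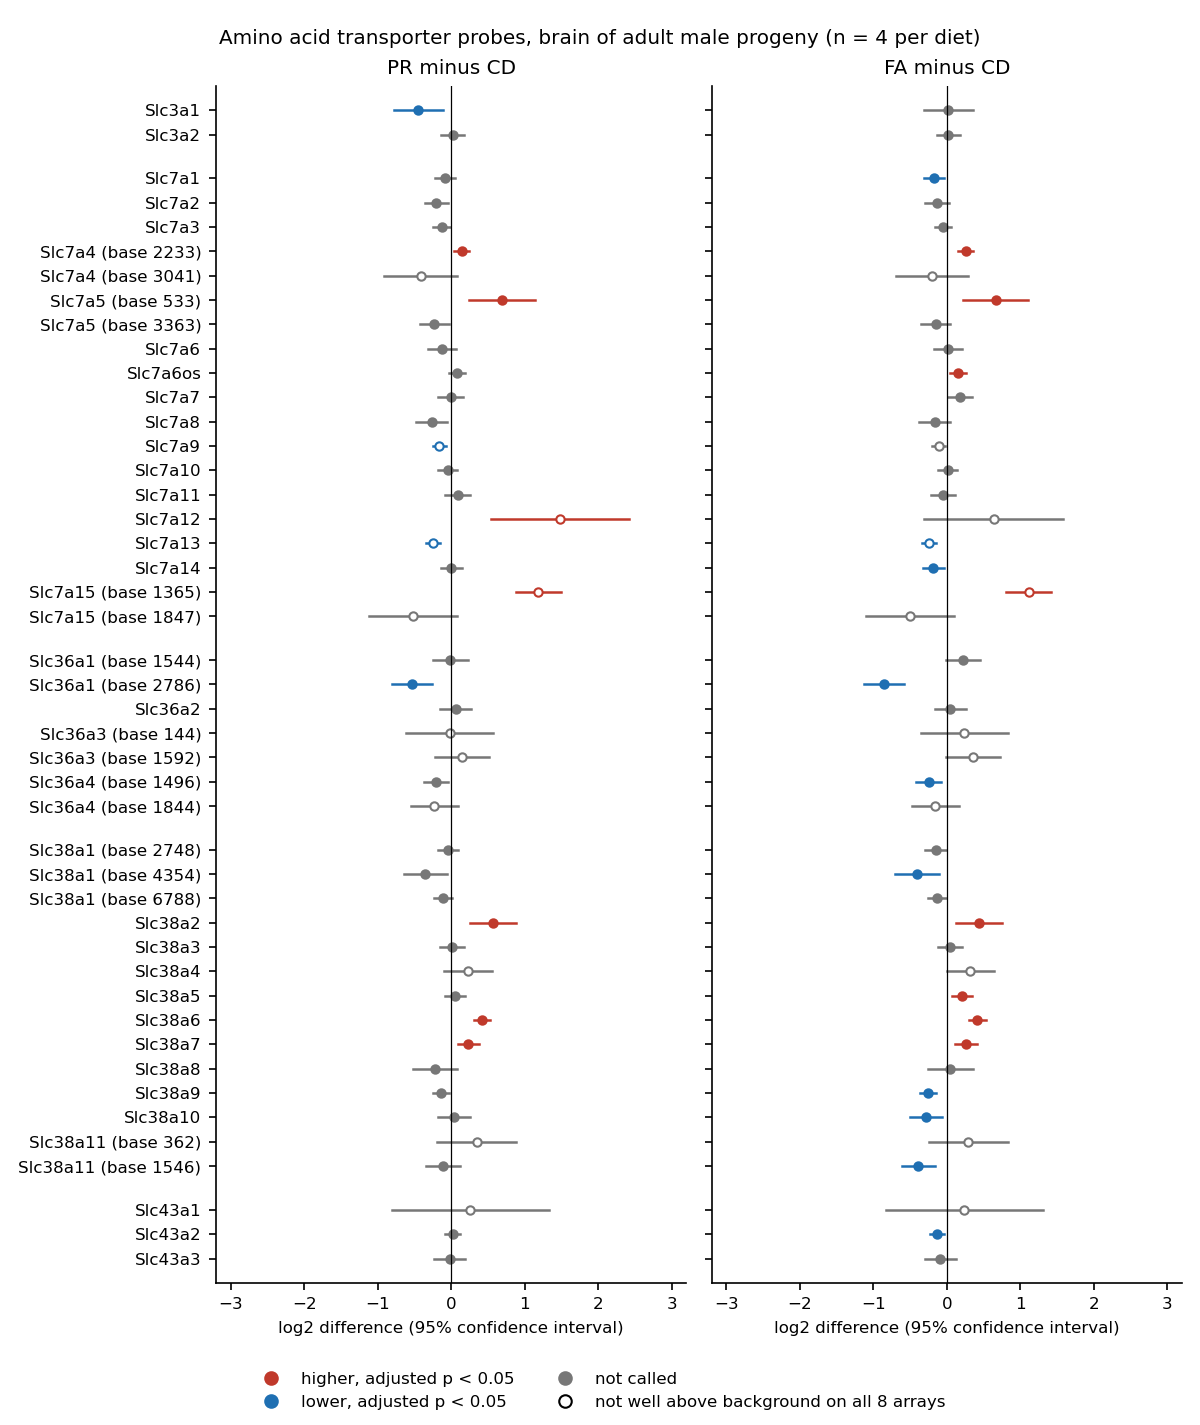
Log2 difference of each of the 45 transporter probes between PR and CD mice (left) and FA and CD mice (right), with 95% confidence intervals from limma, ordered by family; base numbers tell probes of the same gene apart. Red points were higher and blue points lower at an adjusted p under 0.05, gray points were not called, and open points were not well above background on all 8 arrays compared; most intervals lie within 1 log2 unit of 0.

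Among the system A carriers, which take up small neutral amino acids with sodium, Slc38a2 was the gene that rose. Slc38a2 encodes SNAT2, whose synthesis is known to rise when amino acids are short. Its log2 intensities were 13.25, 12.99, 13.37, and 13.51 in the CD mice, 13.82, 13.72, 13.81, and 14.04 in the PR mice, and 13.84, 13.35, 13.88, and 13.81 in the FA mice. All PR mice lay above all CD mice, while FA replicate 2 lay among the CD mice. The PR difference was 0.57 (SE 0.14, 95% confidence interval 0.26 to 0.88, adjusted p = 0.0122), a 1.48-fold level, and it was called in every fit that left out an array (adjusted p at most 0.0375). The FA difference was 0.44 (SE 0.14, adjusted p = 0.0339), and the call was lost without any 1 of CD replicates 1 and 2 and FA replicates 1, 3, and 4 (adjusted p up to 0.0878).

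Slc38a1 encodes SNAT1, the system A carrier of many neurons, and had 3 probes on its transcript. The probe at base 2748 read 15.26, 15.24, 15.10, and 14.99 in the CD mice, 15.13, 15.15, 15.03, and 15.11 in the PR mice, and 15.04, 14.99, 14.92, and 15.04 in the FA mice, so that the groups overlapped. Its differences were -0.04 in PR (adjusted p = 0.646) and -0.15 in FA (adjusted p = 0.0887). The probe at base 6788 differed by -0.11 in PR (adjusted p = 0.155) and -0.13 in FA (adjusted p = 0.0905). The dimmer probe at base 4354 differed by -0.35 in PR (adjusted p = 0.0739) and was lower by -0.41 in FA (SE 0.13, adjusted p = 0.0378). That call was lost without any 1 of CD replicates 1, 2, and 3, PR replicate 2, and each FA replicate (adjusted p up to 0.096), and with the normexp background correction the difference was -0.20 (adjusted p = 0.109). The probe at base 2748 exceeded that at base 4354 in its change by 0.31 in PR (adjusted p = 0.0282) and 0.26 in FA (adjusted p = 0.0539), by the same test of probe pairs as for Slc36a1. Slc38a4, the remaining system A gene, was detected above background on none of the CD arrays and on all 8 arrays of the other groups, and its measured means, 4.31 in CD, 4.54 in PR, and 4.63 in FA, were under the CD detection floor of 5.02, so that no fold is given.

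System N carriers release and take up glutamine in astrocytes. Slc38a3 read 11.09, 11.20, 11.05, and 11.20 in the CD mice, 11.35, 11.09, 11.10, and 11.04 in the PR mice, and 11.22, 11.11, 11.29, and 11.12 in the FA mice. Its differences were 0.01 in PR (95% confidence interval -0.16 to 0.17, adjusted p = 0.945) and 0.05 in FA (-0.12 to 0.21, adjusted p = 0.669), and the groups overlapped. Slc38a5 read 9.89, 9.80, 9.71, and 9.63 in the CD mice, 9.87, 9.80, 9.76, and 9.78 in the PR mice, and 9.86, 9.94, 10.01, and 10.03 in the FA mice. It differed by 0.05 in PR (adjusted p = 0.6) and rose by 0.20 in FA (SE 0.06, adjusted p = 0.0268), with FA replicate 1 below the highest CD mouse. The Slc38a5 call was lost without any 1 of CD replicates 3 and 4 and FA replicates 3 and 4 (adjusted p up to 0.0711).

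Of the remaining SLC38 genes, Slc38a6 had the smallest adjusted p of all transporter probes that were well above background in the PR comparison. It read 6.89, 6.90, 6.81, and 6.77 in the CD mice, 7.21, 7.27, 7.25, and 7.30 in the PR mice, and 7.35, 7.25, 7.17, and 7.26 in the FA mice. No PR or FA mouse came within the CD range. Slc38a6 rose by 0.42 in PR (SE 0.05, adjusted p = 0.000213) and by 0.42 in FA (SE 0.05, adjusted p = 0.000187), a 1.34-fold level in each, and the difference between FA and PR was 0.00 (95% confidence interval -0.11 to 0.11). The normexp background correction gave smaller differences of 0.26 and 0.29, and both calls held under it and without any array (adjusted p at most 0.00103).

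Slc38a7 and Slc38a9 encode lysosomal membrane proteins, the former a glutamine exporter and the latter a sensor of arginine for mTORC1. Slc38a7 read 8.98, 9.18, 8.96, and 9.0 in the CD mice, 9.32, 9.11, 9.27, and 9.34 in the PR mice, and 9.35, 9.28, 9.24, and 9.29 in the FA mice. It rose by 0.26 in FA (SE 0.07, adjusted p = 0.0115), where the groups did not overlap, and by 0.23 in PR (SE 0.07, adjusted p = 0.0224), where PR replicate 2 lay below CD replicate 2. The PR call was lost without any 1 of CD replicates 1 and 3 and PR replicates 1 and 4 (adjusted p up to 0.0633). Slc38a9 read 11.08, 10.99, 10.91, and 11.04 in the CD mice, 10.85, 10.95, 10.80, and 10.87 in the PR mice, and 10.76, 10.72, 10.72, and 10.78 in the FA mice. All FA mice lay below all CD mice, and also below all PR mice. Slc38a9 fell by 0.26 on the log2 scale in FA (SE 0.05, adjusted p = 0.00211), and this call held without any array (adjusted p at most 0.00758). In PR the Slc38a9 difference was -0.14 (SE 0.05, adjusted p = 0.0525).

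Slc38a10 was lower in FA by -0.28 (SE 0.10, adjusted p = 0.0495), with values of 8.08 to 8.25 in the CD mice and 7.83 to 7.98 in the FA mice. This call was lost in 10 of 12 fits that left out an array (all but those without PR replicate 1 or 2, adjusted p up to 0.112) and with scaling to the 75th percentile (adjusted p = 0.0558). The Slc38a10 difference in PR was 0.04 (adjusted p = 0.792). Slc38a11 had a probe at base 1546 that was lower in FA by -0.39 (SE 0.10, adjusted p = 0.0144), with CD mice at 6.66 to 7.04 and FA mice at 6.28 to 6.72, and the call held without any array (adjusted p at most 0.0427). The normexp correction reduced it to -0.21 (adjusted p = 0.0152). The other Slc38a11 probe, at base 362, was detected above background on none of the CD arrays and differed by 0.29 in FA (adjusted p = 0.385). The probes differed in their FA change by 0.68 (SE 0.26, adjusted p = 0.0433 by the test of probe pairs given below for Slc36a1), so a fall of Slc38a11 as a whole is not shown. Slc38a8 was not called in either comparison.

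**Figure D2:**
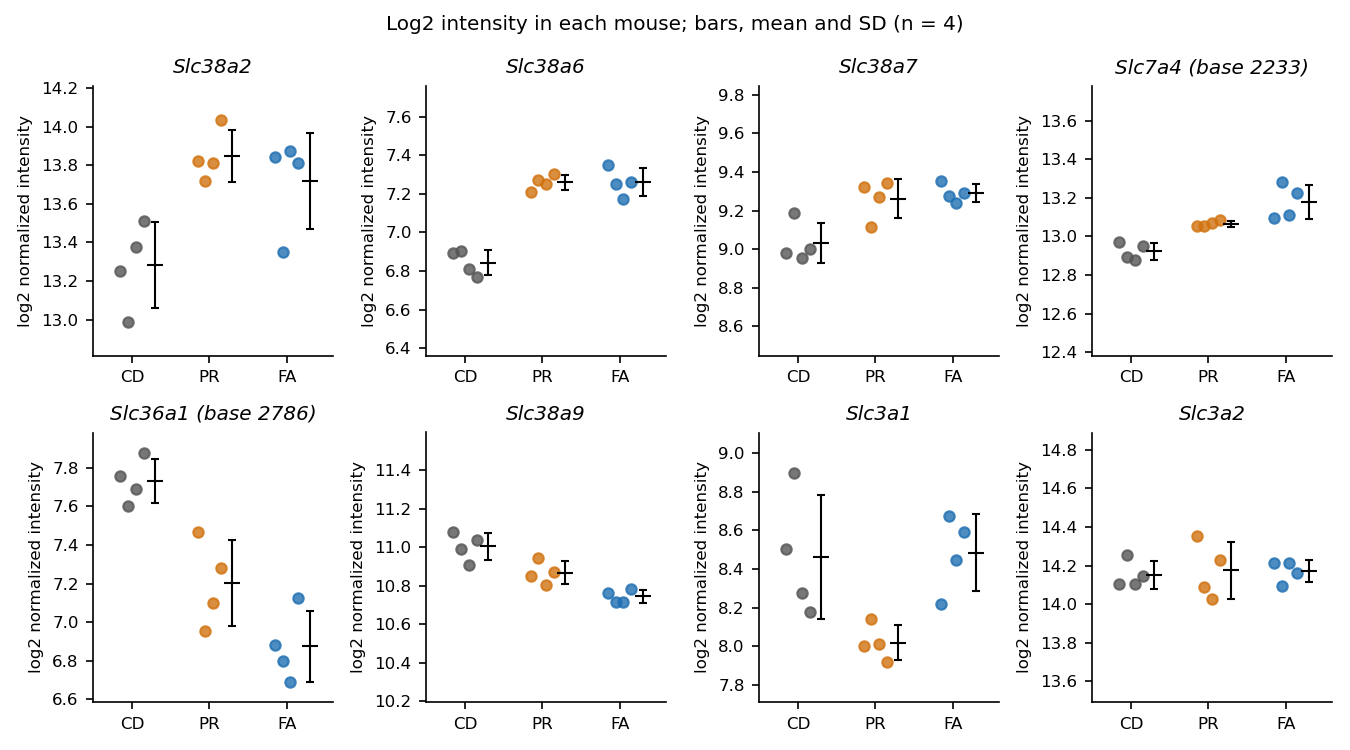
Log2 normalized intensity of 8 transporter genes in each mouse (points, 4 per diet), with the mean and SD of the group beside them; the axes differ between genes and span at least 1.4 log2 units. Slc38a6 and Slc7a4 at base 2233 lie above all CD mice in the PR and FA mice. Slc36a1 at base 2786 lies below all CD mice in both groups. Slc3a1 of the PR mice lies below all other mice, and Slc3a2 overlaps among the groups.

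Some members of the SLC36 family move small amino acids together with protons. Slc36a1 encodes PAT1 of the lysosome and plasma membrane and had 2 probes. The probe at base 2786 (mm9 chr11:55047345-55047404, plus strand) read 7.76, 7.60, 7.69, and 7.88 in the CD mice, 7.47, 6.95, 7.10, and 7.28 in the PR mice, and 6.88, 6.80, 6.69, and 7.12 in the FA mice. Every PR and FA mouse lay below every CD mouse. At this probe Slc36a1 fell by 0.53 on the log2 scale in PR (SE 0.12, 95% confidence interval -0.80 to -0.26, adjusted p = 0.00858) and by 0.86 in FA (SE 0.12, -1.13 to -0.59, adjusted p = 0.000491). Both calls held without any array (adjusted p at most 0.0257), while the normexp correction gave -0.27 in PR (adjusted p = 0.0262) and -0.50 in FA (adjusted p = 0.00077).

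The other Slc36a1 probe, at base 1544 of the same transcript, did not show this fall. It read 5.60, 5.88, 5.78, and 6.11 in the CD mice, 5.85, 5.83, 5.75, and 5.91 in the PR mice, and 5.96, 6.20, 5.91, and 6.18 in the FA mice. Its differences were -0.01 in PR (adjusted p = 0.952) and 0.22 in FA (adjusted p = 0.138), and the PR value turned to 0.16 with scaling to the 75th percentile. The difference between the probes was itself tested with limma over 2240 pairs of probes of a gene, which were all pairs of a transporter gene and, for other genes, the outermost bright probes of a transcript that lie at least 500 bases apart. The base 1544 probe exceeded the base 2786 probe in its change by 0.52 in PR (SE 0.12, adjusted p = 0.00526), by 1.08 in FA (SE 0.12, adjusted p = 7.71e-05), and by 0.56 between FA and PR (SE 0.12, adjusted p = 0.0384). Of all pairs, 44.5% passed this test in PR, 49% in FA, and 2.19% between FA and PR, so unequal changes of such probes were common on these arrays. A fall of Slc36a1 as a whole is therefore not shown by these probes. Genes with a single probe, Slc38a2 and Slc38a6 among them, could not be checked in this way.

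Slc36a4, which encodes PAT4, was lower in FA by -0.25 at its brighter probe (SE 0.07, adjusted p = 0.0263), with values of 8.83 to 9.13 in the CD mice and 8.68 to 8.85 in the FA mice. The call was lost without any 1 of CD replicates 1 and 2 and FA replicates 1 and 3 (adjusted p up to 0.0706) and with the normexp correction (-0.16, adjusted p = 0.0578). The PR difference of Slc36a4 was -0.21 (adjusted p = 0.0592). Slc36a2 differed by 0.06 and 0.05 and was not called. Slc36a3 was well above background on 0 CD arrays at both of its probes.

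Among the SLC7 light chains, Slc7a5 encodes LAT1, which carries leucine and other large neutral amino acids through the blood-brain barrier, and its 2 probes disagreed as well. The probe at base 533 of the transcript (mm9 chr8:124430996-124431055, minus strand) is the one that rose, and its sequence in the scanner files is shown.
Slc7a5 probe at base 533: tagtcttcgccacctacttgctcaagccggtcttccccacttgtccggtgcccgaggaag

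This Slc7a5 probe read 12.92, 12.85, 12.85, and 11.95 in the CD mice, 13.43, 13.27, 13.42, and 13.21 in the PR mice, and 13.52, 13.41, 13.02, and 13.27 in the FA mice. No PR or FA mouse came within the CD range, and CD replicate 4 stood apart below the other CD mice. The probe rose by 0.69 in PR (SE 0.20, 95% confidence interval 0.25 to 1.13, adjusted p = 0.0253) and by 0.66 in FA (SE 0.20, 0.22 to 1.11, adjusted p = 0.0263). Over the fits that left out an array the differences were 0.46 to 0.78 in PR and 0.43 to 0.76 in FA. The PR call was lost without PR replicate 1 or 3 (adjusted p up to 0.0602) and the FA call without FA replicate 1, 2, or 4 (adjusted p up to 0.0701). Both calls were also lost with the study's Tukey test (adjusted p = 0.0933 in PR and 0.0954 in FA). A limma fit of the compared groups alone lost them too (adjusted p = 0.0527 and 0.0661). The downstream probe, at base 3363, read 10.76, 11.07, 10.75, and 10.76 in the CD mice, 10.54, 10.64, 10.58, and 10.67 in the PR mice, and 10.75, 10.79, 10.46, and 10.73 in the FA mice. Its differences were -0.23 in PR (SE 0.09, adjusted p = 0.0845) and -0.15 in FA (SE 0.09, adjusted p = 0.227). The upstream probe exceeded it in its change by 0.92 in PR (SE 0.18, adjusted p = 0.0016) and by 0.82 in FA (SE 0.18, adjusted p = 0.0026).

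**Figure D3:**
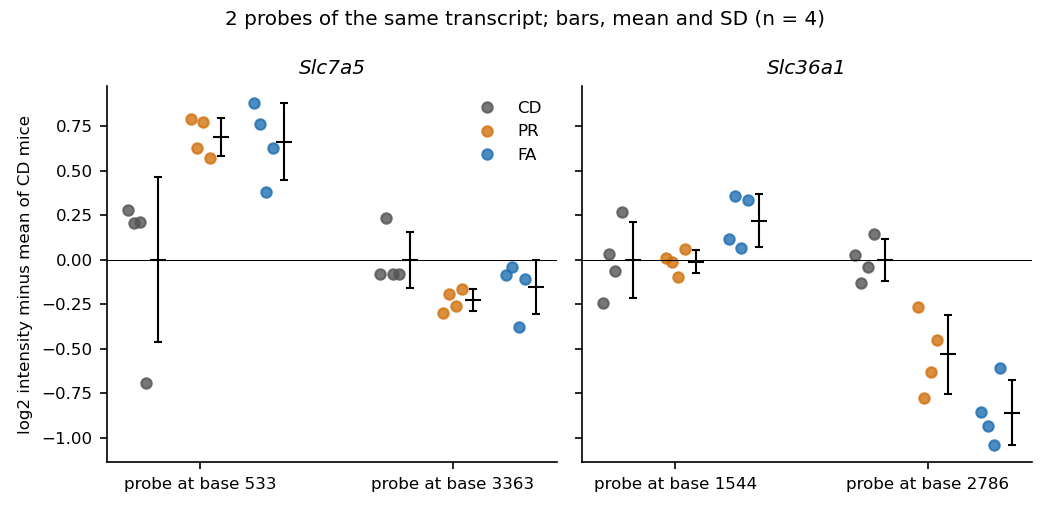
Log2 intensity minus the mean of the CD mice for the 2 probes of Slc7a5 (left) and of Slc36a1 (right) in each mouse (points, 4 per diet), with mean and SD. The Slc7a5 probe at base 533 rose by 0.69 in PR and 0.66 in FA while that at base 3363 differed by -0.23 and -0.15, and the Slc36a1 probe at base 2786 fell while that at base 1544 differed by -0.01 in PR and 0.22 in FA.

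The other light chains of known brain function were not called. Slc7a8, which encodes LAT2, read 10.99, 11.24, 11.00, and 10.82 in the CD mice, 10.80, 10.75, 10.73, and 10.72 in the PR mice, and 10.80, 11.02, 10.65, and 10.93 in the FA mice. The PR mice lay below the CD mice, with a difference of -0.26 (SE 0.10, adjusted p = 0.0622), and the FA difference was -0.16 (adjusted p = 0.217). Slc7a10 encodes Asc-1, a carrier of glycine and D-serine, and differed by -0.05 in PR (95% confidence interval -0.18 to 0.08, adjusted p = 0.552) and by 0.01 in FA (-0.12 to 0.14, adjusted p = 0.898). Slc7a11 encodes xCT, which exchanges cystine for glutamate, and is the gene with 2 response element matches in the promoter shown above. It read 9.10, 8.82, 8.97, and 9.09 in the CD mice, 9.07, 9.06, 9.02, and 9.18 in the PR mice, and 8.98, 8.79, 9.02, and 8.98 in the FA mice. Its differences were 0.09 in PR (95% confidence interval -0.08 to 0.25, adjusted p = 0.412) and -0.05 in FA (-0.22 to 0.11, adjusted p = 0.614). Slc7a7 and Slc7a6 were not called.

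The heavy chains behaved unequally. Slc3a2, the partner of LAT1, LAT2, and xCT, read 14.10, 14.26, 14.10, and 14.15 in the CD mice, 14.35, 14.09, 14.03, and 14.23 in the PR mice, and 14.21, 14.10, 14.21, and 14.16 in the FA mice. Its difference was 0.02 in each comparison (95% confidence interval -0.14 to 0.18, adjusted p = 0.839 and 0.861), and scaling to the 75th percentile turned both below 0 (-0.08 and -0.07). Slc3a1, the partner of the cystine and dibasic amino acid carrier encoded by Slc7a9, read 8.50, 8.90, 8.28, and 8.17 in the CD mice, 8.0, 8.14, 8.01, and 7.92 in the PR mice, and 8.22, 8.67, 8.45, and 8.59 in the FA mice. The PR mice lay below all others. Slc3a1 was lower in PR by -0.44 (SE 0.15, 95% confidence interval -0.78 to -0.11, adjusted p = 0.0475) and differed by 0.02 in FA (adjusted p = 0.935). The PR call was lost with scaling to the 75th percentile (adjusted p = 0.0652), with quantile normalization (adjusted p = 0.05), and in 9 of 12 fits that left out an array (all but those without CD replicate 3 or 4 or FA replicate 1, adjusted p up to 0.11).

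In the cationic branch, the Slc7a4 probe at base 2233 rose in both groups. It read 12.97, 12.89, 12.88, and 12.95 in the CD mice, 13.05, 13.06, 13.07, and 13.09 in the PR mice, and 13.10, 13.28, 13.11, and 13.22 in the FA mice, and the 3 groups did not overlap. The rise was 0.26 in FA (SE 0.05, adjusted p = 0.00234), where it held without any array (adjusted p at most 0.00835), and 0.14 in PR (SE 0.05, adjusted p = 0.0449). The PR call was lost in 9 of 12 fits that left out an array (all but those without FA replicate 1, 2, or 3, adjusted p up to 0.106) and with scaling to the 75th percentile (0.09, adjusted p = 0.202). A dimmer Slc7a4 probe, detected above background on none of the CD arrays, differed by -0.42 in PR (adjusted p = 0.187) and -0.20 in FA (adjusted p = 0.515). The pair differed in its change by 0.56 in PR (adjusted p = 0.0286) and 0.46 in FA (adjusted p = 0.0574). A rise of Slc7a4 as a whole is therefore not shown by these probes. Slc7a1 encodes CAT1, the common arginine and lysine carrier. It read 12.88, 12.88, 12.87, and 12.69 in the CD mice, 12.73, 12.84, 12.64, and 12.78 in the PR mice, and 12.65, 12.69, 12.56, and 12.71 in the FA mice. It differed by -0.08 in PR (adjusted p = 0.345) and was lower by -0.18 in FA (SE 0.06, adjusted p = 0.0434), with CD replicate 4 among the FA mice. Slc7a14, a lysosomal member, was lower in FA by -0.18 (SE 0.06, adjusted p = 0.046). The call of Slc7a1 was lost in 9 of 12 fits that left out an array (all but those without CD replicate 4 or PR replicate 2 or 3, adjusted p up to 0.113), and that of Slc7a14 in 8 (all but those without CD replicate 2, PR replicate 1 or 4, or FA replicate 4, adjusted p up to 0.119). Slc7a2 and Slc7a3 were not called.

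SLC43 carries large neutral amino acids without sodium. Slc43a2, which encodes LAT4, read 10.48, 10.53, 10.59, and 10.47 in the CD mice, 10.49, 10.58, 10.52, and 10.56 in the PR mice, and 10.44, 10.32, 10.38, and 10.42 in the FA mice, so that the FA mice lay below all others. It was lower in FA by -0.13 (SE 0.04, adjusted p = 0.0415) and differed by 0.02 in PR (adjusted p = 0.772). The FA call was lost with the normexp correction (-0.07, adjusted p = 0.195), with scaling to the 75th percentile (adjusted p = 0.0716), and in 8 of 12 fits that left out an array (all but those without CD replicate 4, PR replicate 1 or 2, or FA replicate 1, adjusted p up to 0.11). Slc43a1 was well above background on 1 CD, 3 PR, and 4 FA arrays and was not called, and Slc43a3, a purine nucleobase carrier, was not called. Slc7a6os rose in FA by 0.15 (SE 0.05, adjusted p = 0.0307), a call lost without any 1 of CD replicates 1 and 2 and FA replicates 2 and 3 (adjusted p up to 0.0824).

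Part of the count of calls came from dim probes. Slc7a9 and Slc7a13, which are known from the kidney, were not well above background on any array, although Slc7a13 was called lower in both groups and Slc7a9 in PR. A probe of Slc7a15 at base 1365 was called higher in both groups and was well above background on 1 PR array only, and Slc7a12 was called higher in PR with 2 PR arrays above background, a call lost without CD replicate 1 or PR replicate 3 (adjusted p up to 0.0624). The CD arrays were less sensitive, with a dimmest detected signal of 4.75 to 5.28 beside 3.23 to 3.82 on the PR arrays and 3.70 to 4.01 on the FA arrays, and no bound on a fold against CD could be given for these genes. With the normexp correction the calls of Slc7a9, Slc7a13, and Slc7a15 were lost. Among the 33 transporter probes that were this bright on each of the 8 arrays compared, 2 were lower and 5 higher in PR, beside 14.3% and 16.5% of all such probes, and 9 were lower and 7 higher in FA, beside 17.1% and 19.9%.

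Between the FA and PR groups, 0 transporter probes were called by limma, beside 0.386% of all probes lower and 0.228% higher in FA (0.614% in all), and 0 of the 37 transporter probes well above background in both groups, beside 0.505% and 0.256% of such probes. At an unadjusted p under 0.05 there were 10 (22.2%, beside 14.1% of all probes). The Tukey test gave 0 transporter probes as well, with 2 lower and 6 higher in FA over all 39429 probes. The values for the genes that moved unequally against CD were 0.46 for Slc3a1 (SE 0.15, adjusted p = 0.197), -0.12 for Slc38a9 (SE 0.05, adjusted p = 0.277), -0.15 for Slc43a2 (SE 0.04, adjusted p = 0.155), -0.32 for Slc38a10 (SE 0.10, adjusted p = 0.176), and -0.33 for the Slc36a1 probe at base 2786 (SE 0.12, adjusted p = 0.257). The groups did not overlap for Slc3a1, Slc38a9, Slc43a2, the Slc7a4 probe at base 2233, and the Slc36a1 probe at base 1544. Of these 5, 2 were lower and 3 higher in FA, beside 4.94% and 6.15% of all probes. At single probes a difference between the PR and FA groups is thus not shown for any transporter, and its absence is not shown either. The Slc36a1 pair of probes, whose change differed by 0.56 between FA and PR (adjusted p = 0.0384), is the exception among the pairs of a transporter gene, without showing which of its probes differed.

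Related genes were counted from 3 lists, at 1 probe per gene, the one detected on most arrays and then the brightest. Other probes of these genes were not compared. Their calls were not refitted without single arrays or under other processing. Of 17 other amino acid carriers of the plasma membrane on the array, 1 was lower and 2 higher in PR and 2 were lower and 3 higher in FA, beside 16.6% and 13.4% of all probes in PR and 18% and 16.4% in FA. Slc1a5, a glutamine and neutral amino acid exchanger, rose from a mean of 7.43 in CD to 7.87 in PR (0.44, adjusted p = 0.00425) and 8.28 in FA (0.85, adjusted p = 9.8e-05). Slc16a10, well above background on 8 arrays only, was called lower in PR (-0.43, adjusted p = 0.0143) and in FA (-0.47, adjusted p = 0.00729). Its CD mean of 4.96 lay under the CD detection floor of 5.02, so a fall of Slc16a10 is not shown. The remaining calls were Slc6a7, higher in both groups, and in FA Slc6a15, higher, and Slc1a6, lower. Of 12 carriers of vesicles, lysosomes, and mitochondria, 0 were called in PR (limma), beside 16.6% of all probes lower and 13.4% higher. In FA 1, the mitochondrial aspartate and glutamate carrier Slc25a12, was higher (0.19, adjusted p = 0.00356), beside 18% of all probes lower and 16.4% higher. Of 22 listed genes of amino acid sensing at the lysosome, 15 were found by symbol, and Lamtor1 to Lamtor5, Nprl2, and Nprl3 were not. Of the 15, 4 were lower and 4 higher in PR and 6 were lower and 3 higher in FA. All 15 were well above background on every array, and of such probes 14.3% were lower and 16.5% higher in PR and 17.1% lower and 19.9% higher in FA. The Rag GTPases, which bring mTORC1 to the lysosome, moved unequally. Rragb rose by 0.59 in PR (adjusted p = 0.0016) and 0.61 in FA (adjusted p = 0.00105), and Rragc by 0.36 (adjusted p = 0.00207) and 0.41 (adjusted p = 0.000814). Rragd fell by 0.72 on the log2 scale in PR (adjusted p = 0.0114) and by 0.70 in FA (adjusted p = 0.0111), and Rraga fell by 0.19 (adjusted p = 0.0117) and by 0.15 (adjusted p = 0.0322). The smallest adjusted p of this list was that of Gatsl3, higher in PR (0.71, adjusted p = 0.000706) and in FA (0.92, adjusted p = 0.000152). The other calls were Sesn2 and Fnip2, lower in both groups, Mlst8, higher in PR, and Mtor and Sesn3, lower in FA. The median log2 differences of the 3 lists were -0.02, 0.06, and -0.01 in PR and -0.01, 0.09, and -0.08 in FA.

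Some markers of cell types that hold these transporters were called as well, and their part in the results above was not tested. Their counts stand beside 16.6% of all probes lower and 13.4% higher in PR, and 18% lower and 16.4% higher in FA. The lists are short, so their shares of calls are coarse, and whether the markers differ from other probes was not tested. The markers were also taken at 1 probe per gene. Of 4 neuronal markers 1, Snap25, was lower in PR (-0.15, adjusted p = 0.0319) and 0 were called in FA, with summed linear intensities of 161800 to 188800 in CD, 170200 to 174100 in PR, and 162200 to 182600 in FA. Of 5 oligodendrocyte markers 1, Mog, was higher in PR (0.29, adjusted p = 0.0257) and in FA (0.34, adjusted p = 0.0104), with sums of 222700 to 251800, 226700 to 262200, and 245500 to 262900. Of 5 astrocyte markers 1 was lower and 2 were higher in PR (summed linear intensity 42050 to 44040 in the CD, 45080 to 49550 in the PR, and 43360 to 48010 in the FA mice), and 1 was lower and 1 higher in FA. Gfap was higher in PR (0.43, adjusted p = 0.000992) and in FA (0.32, adjusted p = 0.00446), and Gja1 in PR (0.30, adjusted p = 0.0346). Aqp4 was lower in PR (-0.21, adjusted p = 0.0358) and in FA (-0.35, adjusted p = 0.00256). Of 8 markers of brain endothelium, where LAT1 is abundant, 2 were higher in PR and 2 lower and 2 higher in FA, with sums of 39350 to 40420 in CD, 40520 to 44700 in PR, and 39270 to 40280 in FA. Of 5 microglial markers 1 was lower in PR and 2 in FA, with sums of 24070 to 25700 in CD, 21870 to 24450 in PR, and 21940 to 23020 in FA. Of 7 choroid plexus markers 1 was higher in PR and 0 were called in FA. Of 6 pituitary markers, Gh and Prl were lower in both groups, with sums of 2042 to 2116 in CD, 1036 to 1244 in PR, and 683.8 to 1584 in FA. Gh differed by -5.33 in PR (adjusted p = 0.000549) and -4.62 in FA (adjusted p = 0.00105). Prl differed by -4.56 in PR (adjusted p = 0.00562) and -4.25 in FA (adjusted p = 0.00664). Each was well above background on 5 of the 12 arrays, and the other pituitary markers were not called. By limma 0 blood, meningeal, or muscle markers were called.

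The calls differed in how well they held. Of 29 calls of a transporter probe against CD, 8 held in every fit that left out an array and under every other setting of normalization, background, variance model, block, and test that kept the probe, the study's limits apart. These were Slc36a1 at base 2786 and Slc38a6 in both groups, Slc38a2 in PR, and Slc38a7, Slc38a9, and Slc7a4 at base 2233 in FA. The other 21 lost their call under at least 1 of them. This count was not made for the other called probes of the array, so it does not set the transporters apart from them. The typical spread did not set the transporters apart, with a median within-group SD of 0.10 over the 33 bright probes and 0.10 over all 23753 probes well above background on 12 arrays. It was 0.30 for the Slc7a5 probe at base 533, 0.22 for Slc3a1, and 0.21 for Slc38a2.

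**Figure D4:**
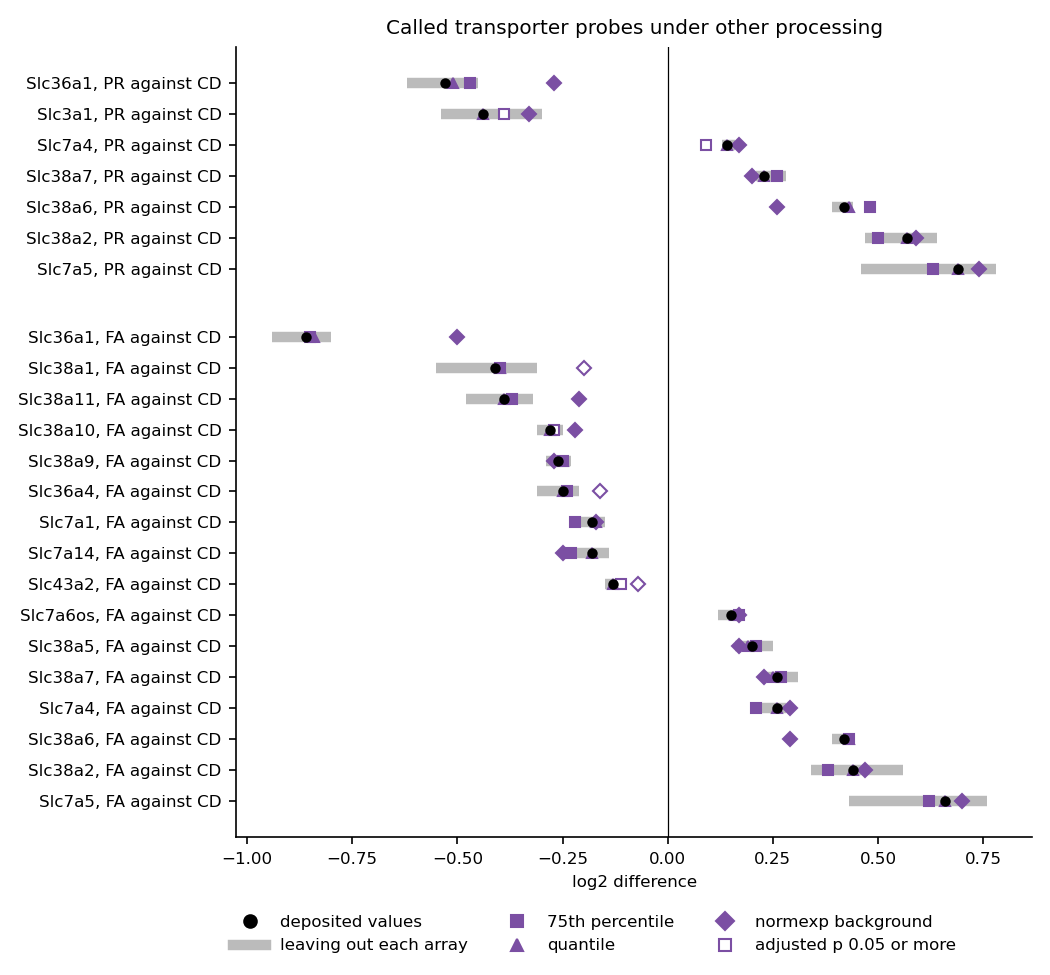
Log2 difference from CD of the called transporter probes that were well above background (rows), from the deposited values (black), over the fits that left out an array (gray bars), and with 3 other ways of normalization or background correction (purple, open where the adjusted p was 0.05 or more). No value crosses 0, and the normexp correction moves the dimmer probes, Slc36a1, Slc38a6, Slc38a11, and Slc38a1 at base 4354, toward 0.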

How the data were processed

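RNA of the whole brain of 12 male progenies (CD, PR, and FA, 4 each) was measured with 1 one-color array per mouse. Per the file headers, the authors used Feature Extraction 11.0.1.1 with mm9 annotation, which corrected spot intensities for background within each array. The authors deposited these intensities and a table of intensities on the linear scale after qspline normalization between arrays. The log2 of the deposited table is reported here for 39429 probes. Reapplying qspline to the scanner intensities gave values within 0.0091 of it for the transporter probes.

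The 3 groups, taken from the diet labels, entered a common linear model (limma 3.58.1, R 4.3.3), and two-sided p-values received Benjamini-Hochberg adjustment over the whole array. Calls were made at an adjusted p under 0.05 and a probe counted as well above background on an array where 50% or more of its spots had the scanner's flag. A gene with several probes was described by the probe detected on most arrays, then by the brightest. Named genes were 15 with established roles, the 5 largest falls and rises among called probes, undetected genes, and genes whose probes disagreed. Members and lists were chosen with earlier results of these data known. All 45 transporter probes kept their gene under current symbols. Same-numbered replicates did not deviate together (correlations of -0.063 to 0.196 over 12 pairs), so replicate numbers were not used as pairs. Alternatives were quantile normalization, scaling to the 75th percentile, normexp background correction (offset 50), leaving out outlier spots, removing dim probes, the replicate number as block, robust eBayes with a trend, a fit of the compared groups alone, the study's Tukey test and limits, 1 probe per gene, other member rules, and leaving out each array. The stricter dim probe filter, the test of probe pairs, and the motifs were chosen after the values were seen. The fit was tested on simulated data. Figures and motif counts were made with Python 3.11.15 and matplotlib 3.10.9.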

Additional observations from a re-analysis of the deposited data

Results flagged for a closer look

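In 6 of the 109 combinations of a transporter probe and a diet group in which the probe was well above background on all 4 arrays (5.5%), the highest or lowest mouse stood apart from the others by Dixon's ratio at the 95% level. Chance flags about 1 in 20 such groups, so this number is near what chance gives. The mice that stood apart were CD replicate 4 for the Slc7a5 probe at base 533 (11.95, nearest other mouse 12.85) and for Slc7a1 (12.69, nearest 12.87), and CD replicate 2 for the Slc7a5 probe at base 3363 (11.07, nearest 10.76). Others were FA replicate 2 for Slc38a2 (13.35, nearest 13.81), FA replicate 4 for Slc43a3 (6.55, nearest 6.90), and PR replicate 2 for Slc7a2 (5.59, nearest 5.43).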

How the results depend on the processing

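With the deposited values, 4 transporter probes were lower and 7 higher in PR, and 10 lower and 8 higher in FA. Leaving out each array gave 3 to 8 lower and 4 to 7 higher in PR, 4 to 10 lower and 5 to 9 higher in FA, and 0 in either direction between FA and PR. The number lower in PR was 8 without CD replicate 4, and that lower in FA was 4 without FA replicate 3. Over all 39429 probes, the fits that left out an array gave 5301 to 6726 lower and 4077 to 5540 higher in PR. They gave 6098 to 7177 lower and 5363 to 6671 higher in FA, and 19 to 163 lower and 15 to 96 higher between FA and PR. Fitting only the groups compared gave 4 higher in PR and 5 lower in FA, the Tukey test gave 3 higher in PR, 5 lower in FA, and 5 higher in FA, and the study's limits gave 0 in each of these 4 counts. Over all probes, fitting only the groups compared gave 6035 lower and 4548 higher in PR and 6604 and 5964 in FA. The Tukey test gave 4882 and 3472 in PR and 5488 and 4549 in FA. The study's limits gave 10 and 24 in PR and 25 and 52 in FA. Replicate numbers did not pair the mice, and the replicate block gave 4 lower and 5 higher in PR and 6 lower and 6 higher in FA, with 2 of 12 arrays correlating best with their own number in both other groups. With this block, all probes gave 6051 lower and 4935 higher in PR and 6625 lower and 6085 higher in FA. Over all probes, the normexp correction gave 3650 lower and 4691 higher in PR, beside 6532 and 5288 with the deposited values, and 4864 and 6300 in FA, beside 7109 and 6449. The cause was not tested.

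Of the values for single probes under these alternatives, 1417 kept direction and side of the threshold, 138 lost a call, 20 gained one, and 38, none of them called, changed sign. Scaling to the 75th percentile turned the Slc36a1 probe at base 1544 in PR (0.16), Slc3a2 in PR (-0.08), in FA (-0.07), and between FA and PR (0.01), and Slc7a10 in FA (-0.02). Quantile normalization turned Slc43a1 between FA and PR (0.01). The normexp correction turned Slc43a1 in PR (-0.02) and FA (-0.04), Slc7a10 in FA (-0.01), and Slc3a2 between FA and PR (0.02). Without single arrays, sign changes lay within these ranges: in PR, -0.09 to 0.08 for the Slc36a1 probe at base 1544, -0.06 to 0.04 for Slc38a3, and -0.04 to 0.07 for Slc3a2. In FA they were -0.08 to 0.17 for Slc3a1, -0.02 to 0.74 for Slc43a1, and -0.02 to 0.05 for Slc7a10. Between FA and PR they were -0.05 to 0.03 and -0.09 to 0.01 for the Slc38a1 probes at bases 6788 and 4354, -0.05 to 0.06 for Slc3a2, -0.38 to 0.15 for Slc43a1, and -0.1 to 0.07 for Slc7a5. Probes near background are limited by the less sensitive CD arrays.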
